A study of Mus musculus with 12 samples.

Results

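The alpha and beta tubulin isotypes described here are 10 genes of mouse 4T1 mammary carcinoma cells: Tuba1a, Tuba1b, Tuba1c and Tuba4a of the alpha family, and Tubb2a, Tubb2b, Tubb3, Tubb4b, Tubb5 and Tubb6 of the beta family. They were chosen by gene symbol, as subunits of the target of docetaxel, from the 40406 entries of the count table. Earlier results of these data were known when they were chosen. All 10 passed the filter on low counts and were among the 15538 genes tested. Tubb3 passed it with 0 to 22 counts per library.

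RNA was sequenced from 4T1, a BALB/c line labelled triple-negative, in a wild-type and a knockout-labelled form of integrin β3, which Itgb3 encodes. Both genotypes were grown in biological triplicate, on dishes coated with poly-L-lysine. They received the solvent DMSO or 10 nM docetaxel for 24 h and were harvested after 48 h without drug. The 4 groups were wild type with DMSO, wild type with docetaxel, knockout-labelled with DMSO and knockout-labelled with docetaxel, with 3 libraries each, so every group mean below has n = 3. The sources used here do not give how the knockout was made or whether each genotype is 1 clone. P-values measure the spread between these libraries.

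Each library held 28.7 to 40.8 mega-counts. Values in CPM are counts scaled to a common library size of 1 mega-count. Itgb3 stood at 71.4, 60.1 and 66.1 CPM in wild-type cells with DMSO and at 62.4, 66.7 and 65.0 CPM in knockout-labelled cells with DMSO, a log2 fold change of -0.03 ± 0.08 (SE, adjusted p = 0.874, edgeR). After docetaxel Itgb3 was lower in knockout-labelled cells, with a log2 fold change of -0.41 ± 0.08 (adjusted p = 0.00765, edgeR). The transcript level therefore did not separate the genotype labels under DMSO, and the cells are called knockout-labelled throughout. The free-text description of wild-type DMSO library 1 names a knockout, while its title and genotype field say wild type. It was kept as wild type, and calls of members that change without it are given with the value. The wild-type DMSO libraries also differed in the share of counts taken by Gm23935, an entry annotated as a microRNA: 1.62%, 3.98% and 0.435%, against 0.137% to 0.220% with docetaxel in wild-type cells and with DMSO in knockout-labelled cells, and 0.293% to 1.51% with docetaxel in the latter. All 6 epithelial markers were above 1 CPM, with a sum of 2657 to 3952 CPM. Of the receptors that define a triple-negative tumour, Pgr was near 0 (0.0247 CPM), but Esr1 averaged 31.5 CPM and Erbb2 103 CPM. The 5 neuronal markers summed to 0.157 to 0.423 CPM, with Nefl and Stmn2 at 0. Of the leukocyte markers, Cd68 averaged 22.6 CPM and Cd3e 2.00 CPM, while Ptprc averaged 0.0701 CPM and Adgre1 0.0125 CPM. The 4 fibroblast markers, of which Lum was at 0 and Dcn at 0.0170 CPM, summed to 28.3 to 30.5 CPM with DMSO and 19.4 to 20.8 CPM with docetaxel in wild-type cells, and to 14.8 to 18.6 and 12.0 to 14.5 CPM in knockout-labelled cells, most of it Pdgfra (18.7 CPM on average).

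Microtubules are built from dimers of 1 alpha and 1 beta tubulin. Taxanes bind the beta subunit inside the polymer and stabilise it, which shrinks the pool of free dimers. Cells adjust tubulin messages to that pool: when free dimers are plentiful, TTC5 binds the first residues of nascent tubulin on the ribosome and recruits SCAPER and the CCR4-NOT deadenylase, which degrade the message. Isotypes within a family are nearly alike in the body of the protein and differ most in the acidic C-terminal tail, where the enzymes that add or remove tyrosine and glutamate act. The class III isotype (Tubb3), typical of neurons, is often studied for its association with taxane resistance in tumours.

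The tails show how far the beta members differ. The last 60 coding bases, stop codon included, are printed 5′ to 3′ from the GENCODE M21 transcripts on GRCm38, and capitals mark bases that differ from Tubb5 in a pairwise alignment. The sequence of Tubb6 is not shown.
Tubb5 (chr17:35834982-35835041, minus strand): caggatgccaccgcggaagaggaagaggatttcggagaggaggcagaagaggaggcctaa
Tubb4b (chr2:25222308-25222367, minus strand): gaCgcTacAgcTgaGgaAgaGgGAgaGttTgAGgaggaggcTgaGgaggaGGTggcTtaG
Tubb2a (chr13:34074468-34074527, minus strand): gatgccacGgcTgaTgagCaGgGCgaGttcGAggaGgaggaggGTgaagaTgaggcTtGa
Tubb2b (chr13:34127471-34127530, minus strand): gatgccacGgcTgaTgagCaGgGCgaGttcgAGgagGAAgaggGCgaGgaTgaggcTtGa
Tubb3 (chr8:123421623-123421682, plus strand): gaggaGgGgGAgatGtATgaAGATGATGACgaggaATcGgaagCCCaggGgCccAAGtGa
Of the members shown, Tubb3 differed most from Tubb5 within this stretch, at 29 bases, followed by Tubb4b at 20, Tubb2b at 19 and Tubb2a at 16. Bases set against a gap in the alignment count as differing too, and were not counted apart. The coding sequence of Tubb3 has 1353 bases and that of Tubb5 1335.

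The first 12 coding bases, which encode the part of the nascent chain that TTC5 reads, were much alike. Tuba1a, Tuba1b and Tuba1c all begin with atgcgtgagtgc, and Tuba4a begins with atgcgcgagtgc. Tubb3 and Tubb4b share atgagggagatc, Tubb5 begins with atgagggaaatc, Tubb2a with atgcgcgagatc and Tubb2b with atgcgagagatc.

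This likeness bears on the counts, because the treatment of multiply mapped reads was not given in the sources used here. Over the whole coding sequence Tuba1a and Tuba1b were 98.3% identical, Tuba1b and Tuba1c 97.9%, Tuba1a and Tuba1c 97.1%, and Tubb2a and Tubb2b 96.5%. The other pairs within a family lay between 80.2% and 85.9%. Of all windows of 150 bases (1 read length) in the longest transcript, 37.5% in Tuba1a, 53.0% in Tuba1b and 46.7% in Tuba1c also occurred in a transcript of another gene. Left out of the shares given here were genes that overlap a member on the same strand. Gm49450 is such a gene and covers 473 exon bases of Tuba1a (26.2%) and 426 of Tuba1b (22.7%). Among the genes counted, the leading partner was another of these 3 genes in each case, and several predicted pseudogenes shared windows too. For Tubb2a the share was 27.9% and for Tubb2b 20.1%, nearly all with each other, and for Tubb4b 16.8%, with the pseudogene Tubb4b-ps1. Tubb3, Tubb5 and Tubb6 shared none. Tuba4a shared 45.7%, all with Stk16, a kinase gene on the opposite strand that overlaps 1379 of its exon bases. The strand setting of the counting is unknown as well, so the single values of Tuba1a, Tuba1b, Tuba1c, Tuba4a, Tubb2a, Tubb2b and Tubb4b are less certain than those of Tubb5 and Tubb6.

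Beta tubulin messages in these cells were mostly Tubb5, and alpha messages mostly Tuba1b. To compare genes, CPM were divided by the length of each gene's exons in kb. Tubb5, the ubiquitous class I isotype, stood at 771, 943 and 926 CPM per kb in wild-type cells with DMSO. Tuba1b, the ubiquitous alpha isotype, followed with 315, 253 and 196 CPM per kb. No library of Tuba1b reached the lowest one of Tubb5 in any group.

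In the wild-type DMSO group the order of mean levels was Tubb5 (880 CPM per kb), Tuba1b (255), Tuba1a (109), Tubb4b (102), Tuba1c (58.3), Tubb6 (48.1), Tubb2a (36.0), Tuba4a (20.7), Tubb2b (4.97) and Tubb3 (0.153). Tuba1a overlapped Tubb4b in this order, as did Tuba1c and Tubb6, and the other neighbours did not overlap. Tubb3, at 4 to 12 counts in libraries of about 30 mega-counts, was the lowest member in every group. In the knockout-labelled DMSO group the order differed only in that Tubb4b (170 CPM per kb) stood above Tuba1a (135), and there Tuba1c overlapped Tubb6 and Tubb2a overlapped Tuba4a. After docetaxel Tubb6 (114 CPM per kb) stood above Tuba1c (102) in wild-type cells without overlap. In knockout-labelled cells after docetaxel Tubb6 (99.9) overlapped Tuba1c (99.6), and Tuba4a (44.1) overlapped Tubb2a (43.0).

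**Figure D1:**
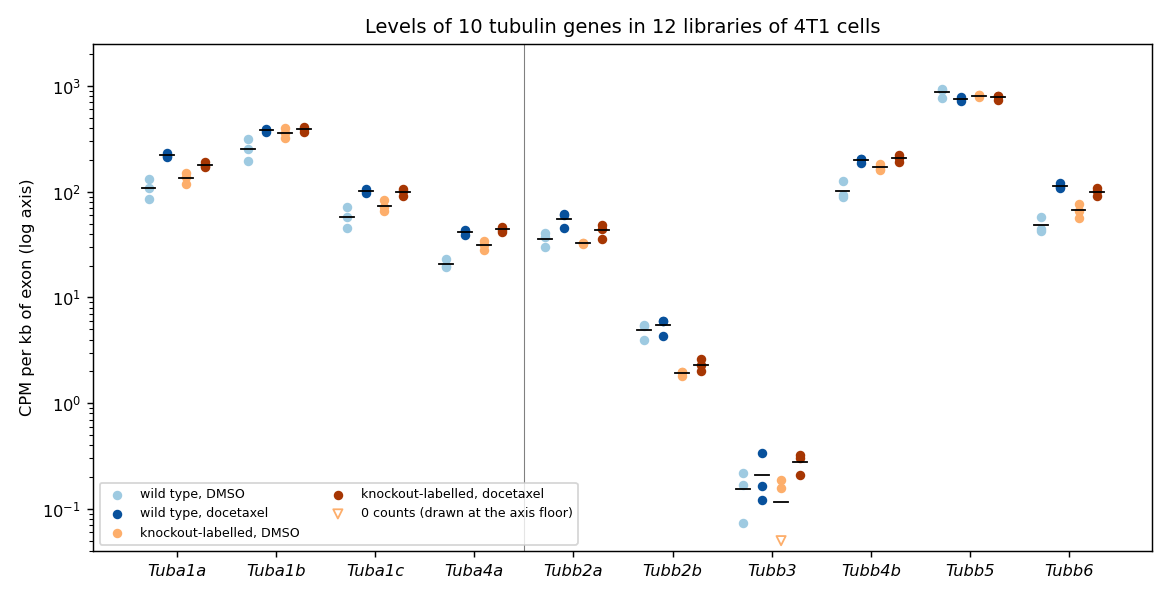
Level of each tubulin gene in each of the 12 libraries, in CPM per kb of exon on a log axis, with alpha members left and beta members right of the vertical line; points are libraries, bars are group means of 3 libraries and the open triangle is the library with 0 Tubb3 counts. Tubb5 lies between 727 and 943 CPM per kb in all groups, Tubb3 reaches at most 0.335 CPM per kb, and the Tubb2b points of the knockout-labelled groups lie below those of the wild type.

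Composition differed between treatments in both families. Shares are each member's part of the summed counts per kb of its family, as mean ± SD over 3 libraries. They are given as a description without a test, because the members were chosen with earlier results of these data known. Shares within a family are also tied to each other. Tubb5 made up 82.0 ± 4.25% of the beta members in wild-type cells with DMSO and 66.9 ± 0.926% after docetaxel, and 75.0 ± 1.83% and 68.9 ± 1.14% in the knockout-labelled cells. The libraries did not overlap in either case: 77.1% to 84.9% against 65.9% to 67.7%, and 72.9% to 76.2% against 67.6% to 69.8%. The shares of Tubb4b, Tubb6 and Tubb2a were larger after docetaxel. Tubb4b, a broadly expressed class IV isotype, went from 9.66 ± 2.49% to 17.6 ± 0.232% in wild-type cells and from 15.6 ± 1.13% to 18.3 ± 0.511% in knockout-labelled cells. Tubb6, the class V isotype, went from 4.53 ± 1.07% to 10.1 ± 0.596% and from 6.16 ± 0.886% to 8.77 ± 0.276%. Tubb2a, a class II isotype, went from 3.38 ± 0.695% to 4.91 ± 0.613% and from 3.00 ± 0.0435% to 3.76 ± 0.404%.

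Among the alpha members, Tuba1a, the leading alpha isotype of developing neurons, held a larger share after docetaxel and Tuba1b a smaller one. In wild-type cells its share was 24.5%, 24.7% and 24.8% with DMSO and 29.6%, 29.7% and 29.7% after docetaxel. Knockout-labelled cells had 22.5%, 22.1% and 22.9%, and 25.2%, 25.5% and 24.7% after docetaxel. Tuba1b went from 57.4 ± 0.890% to 51.0 ± 0.320% in wild-type cells and from 60.0 ± 0.323% to 54.7 ± 0.449% in knockout-labelled cells. The Tuba1a share was thus nearly the same in the wild-type DMSO libraries, in which the Tuba1a level itself ran from 155 to 240 CPM. Tuba1c held 11.9% to 14.3% and Tuba4a 4.24% to 6.93% over the 12 libraries.

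**Figure D2:**
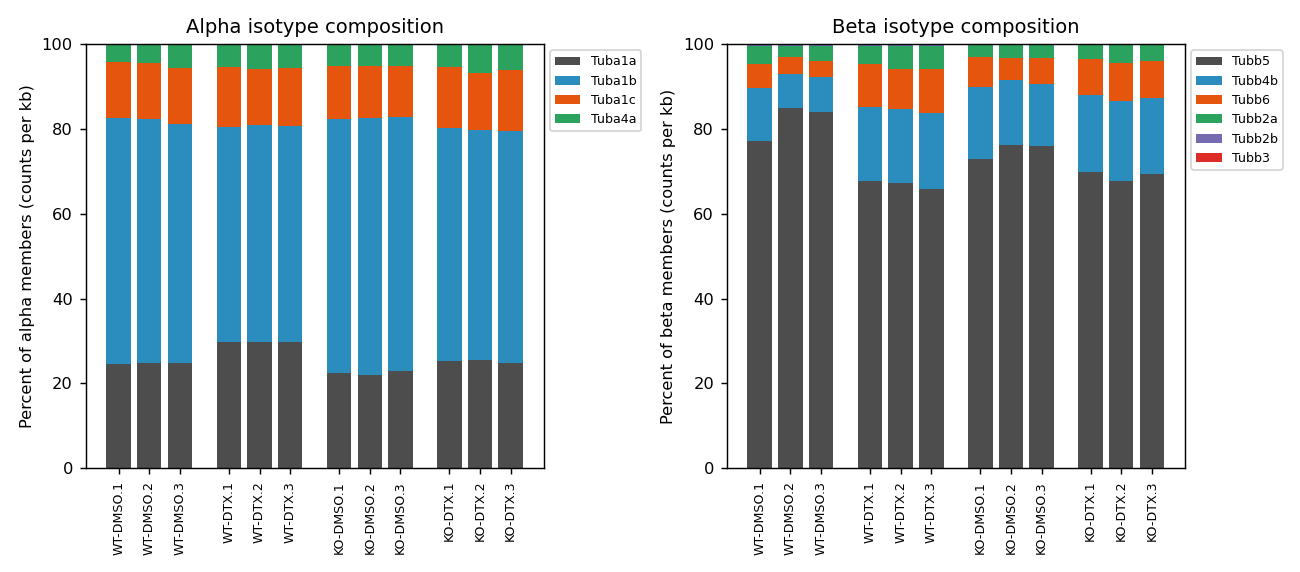
Share of each isotype in the summed counts per kb of the alpha (left) or beta (right) members, in percent, with 1 bar per library and the 4 groups set apart. The Tubb5 block is lower in all 3 docetaxel libraries than in all 3 DMSO libraries of the same genotype, and Tubb2b and Tubb3 are too small to see at 0.54% or less.

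The sum of the alpha members was higher after docetaxel, while the sum of the beta members overlapped between treatments. In wild-type cells alpha messages summed to 542, 439 and 348 CPM per kb with DMSO and to 721, 742 and 774 CPM per kb after docetaxel, 1.68 times the DMSO mean. In knockout-labelled cells they summed to 665, 534 and 597 CPM per kb with DMSO and to 751, 677 and 710 CPM per kb after docetaxel, 1.19 times. Beta messages overlapped between treatments in both genotypes, with means of 1072 ± 61.8 and 1127 ± 46.8 CPM per kb in wild-type cells and 1084 ± 9.71 and 1138 ± 63.8 CPM per kb in knockout-labelled cells. Without Tubb5, the remaining beta members summed to 192 ± 32.9 and 373 ± 23.4 CPM per kb in wild-type cells and to 271 ± 21.8 and 354 ± 30.9 CPM per kb in knockout-labelled cells, with no overlap between treatments in either. The ratio of alpha to beta messages in wild-type cells was 0.542, 0.395 and 0.315 with DMSO and 0.671, 0.639 and 0.676 after docetaxel, with no overlap. In knockout-labelled cells it was 0.609, 0.497 and 0.550 with DMSO and 0.705, 0.571 and 0.609 after docetaxel, with overlap. All other alpha and beta tubulin genes on the list of further tubulins together held 0.0343% to 0.183% of the alpha and beta total.

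After docetaxel, 7 of the 10 isotypes rose in wild-type cells and 0 fell: the 4 alpha members and Tubb2a, Tubb4b and Tubb6. Over all 15538 genes tested, 14.5% rose and 28.4% were called in either direction (edgeR, adjusted p under 0.05). The libraries of these 7 members did not overlap between treatments, a pattern that 21.2% of all tested genes showed in the same direction. The members' median log2 fold change was 0.72, against 0.02 over all genes. In bulk RNA such a change in each cell and a change in which cells were present at harvest cannot be told apart. With an unadjusted p under 0.05, 8 members passed (39.8% of all genes did), the further one being Tubb5 as lower.

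Of the alpha members, Tuba1a stood at 240, 195 and 155 CPM with DMSO and 385, 397 and 415 CPM after docetaxel, a log2 fold change of 1.02 ± 0.13 (SE, adjusted p = 1.22e-04, edgeR). Tuba4a stood at 85.0, 71.7 and 73.0 CPM with DMSO and 146, 161 and 159 CPM after docetaxel, a log2 fold change of 1.02 ± 0.10 (adjusted p = 1.10e-05, edgeR). Both about doubled, with folds of 2.03. Stk16, which overlaps Tuba4a on the other strand, rose less in the same libraries, by 0.57 ± 0.11 on the log2 scale (adjusted p = 0.00201, edgeR), from 23.1 to 32.0 CPM up to 40.2 to 45.8 CPM. The part of that overlap in the Tuba4a change was not tested.

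Tuba1c went from 163, 133 and 104 CPM to 234, 223 and 244 CPM (log2 fold change 0.81 ± 0.14, adjusted p = 8.17e-04, edgeR). Tuba1b went from 591, 475 and 368 CPM to 685, 713 and 739 CPM (0.58 ± 0.14, adjusted p = 0.00691, edgeR). In all 3 Tuba1 genes library 1 was the highest and library 3 the lowest of the wild-type DMSO libraries, and each stayed below the lowest docetaxel library.

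Among the beta members the largest change was that of Tubb6, from 140, 108 and 103 CPM to 270, 266 and 294 CPM, a log2 fold change of 1.24 ± 0.13 (adjusted p = 2.44e-05, edgeR) or 2.36-fold. Tubb6 shared no read-length window with another gene. Tubb4b went from 262, 187 and 193 CPM to 388, 428 and 425 CPM (0.95 ± 0.12, adjusted p = 1.06e-04, edgeR). Tubb4b-ps1, the pseudogene that shares windows with Tubb4b, also rose (0.80 ± 0.20, adjusted p = 0.00798, edgeR). In knockout-labelled cells Tubb4b-ps1 did not pass (0.27 ± 0.19, adjusted p = 0.363, edgeR). The part of shared reads in the Tubb4b change was not tested. Tubb2a went from 65.6, 48.0 and 60.3 CPM to 72.6, 98.9 and 96.6 CPM (0.62 ± 0.14, adjusted p = 0.00542, edgeR), with wild-type DMSO library 1 close under docetaxel library 1.

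The 3 members that did not pass were Tubb2b, Tubb3 and Tubb5. Tubb2b, a close copy of Tubb2a, stood at 12.4, 9.12 and 12.7 CPM with DMSO and at 9.97, 13.9 and 13.8 CPM after docetaxel (0.14 ± 0.16, adjusted p = 0.554, edgeR). Tubb5 stood at 2566, 3137 and 3081 CPM and at 2419, 2593 and 2513 CPM (-0.22 ± 0.09, adjusted p = 0.0810, edgeR). Only DMSO library 1 of Tubb5 lay within the docetaxel range. Without that library the log2 fold change of Tubb5 was -0.31 (adjusted p = 0.0113), and DESeq2 called it lower with all libraries (adjusted p = 0.0313). The 7 members that rose did so in all 23 settings of test, scaling, filter and libraries.

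**Figure D3:**
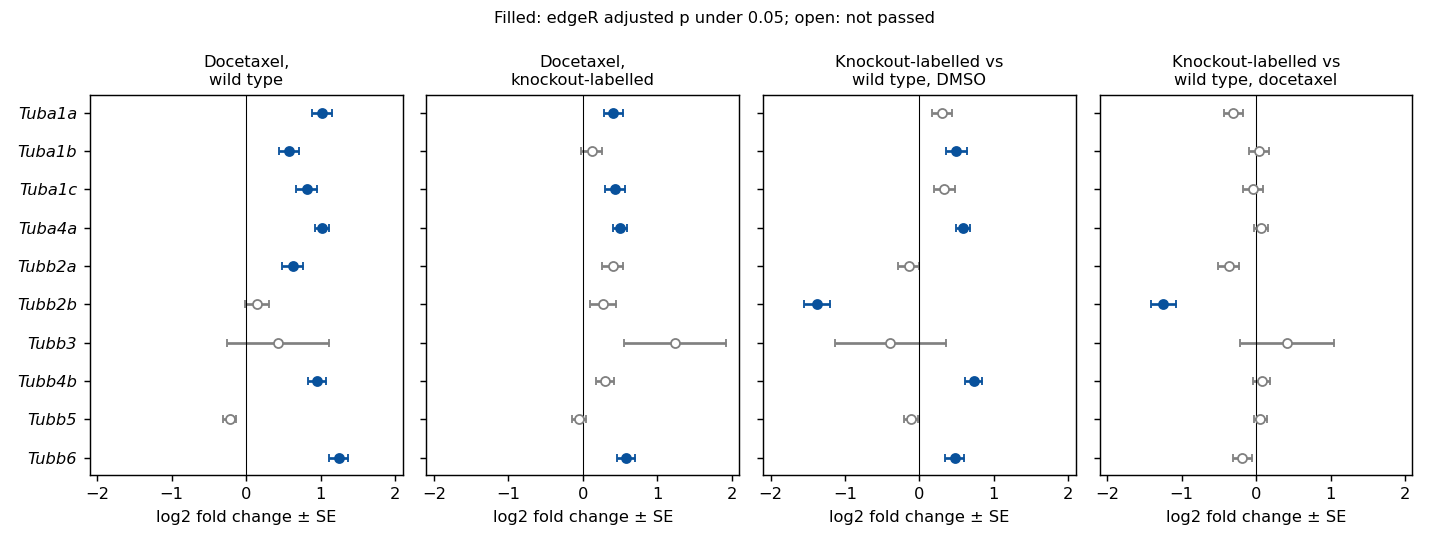
Log2 fold change of each of the 10 members in the 4 comparisons, with bars of ± 1 SE from the edgeR fit to 12 libraries; filled points passed an adjusted p of 0.05 and open points did not. In the first panel 7 members lie to the right of 0 and filled, in the second 4, and in the last 2 panels Tubb2b lies far to the left, at -1.38 and -1.25.

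In the knockout-labelled cells 4 of 10 members rose with docetaxel and 0 fell, against 9.09% of all tested genes that rose and 16.1% called in either direction (edgeR). These were Tuba1a, Tuba1c, Tuba4a and Tubb6. The libraries of 8 members were higher without overlap, against 19.2% of all genes, and the median log2 fold change was 0.41. At an unadjusted p under 0.05, 6 members (30.4% of all genes) passed, all as higher.

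Tubb6 went from 188, 139 and 162 CPM to 222, 262 and 246 CPM (log2 fold change 0.58 ± 0.13, adjusted p = 0.00705, edgeR). Tuba4a went from 126, 103 and 116 CPM to 154, 173 and 162 CPM (0.50 ± 0.09, adjusted p = 0.00266, edgeR), while Stk16 stood at 40.6, 36.4 and 37.0 CPM and at 39.4, 41.5 and 41.9 CPM (0.11 ± 0.11, adjusted p = 0.563, edgeR). Tubb6 and Tuba4a passed in all 23 settings.

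The other 2 calls were close to the threshold. Tuba1a went from 269, 212 and 247 CPM to 341, 311 and 316 CPM (0.41 ± 0.13, adjusted p = 0.0452, edgeR), and Tuba1c from 192, 150 and 163 CPM to 244, 207 and 232 CPM (0.44 ± 0.14, adjusted p = 0.0414, edgeR). Tuba1a passed in 13 of 23 settings and Tuba1c in 14, with adjusted p-values of up to 0.196 and 0.176, both reached without knockout-labelled DMSO library 2. Both calls were also lost without knockout-labelled DMSO library 3, knockout-labelled docetaxel library 1 or 3, any 1 of the wild-type docetaxel libraries, or, for Tuba1a, knockout-labelled docetaxel library 2.

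Tubb4b, at 385, 343 and 334 CPM with DMSO and 402, 467 and 437 CPM after docetaxel, did not pass (0.30 ± 0.12, adjusted p = 0.103, edgeR) although its libraries did not overlap. It passed in 4 of 23 settings: without wild-type DMSO library 1 (0.30, adjusted p = 0.0283), with no filter on low counts (adjusted p = 0.0371), with a correction for GC content (0.38, adjusted p = 0.0191) and in a fit of the 6 knockout-labelled libraries alone (adjusted p = 0.0382). Tubb2a did not pass either, at 51.9, 52.5 and 52.7 CPM and 57.2, 78.8 and 71.7 CPM (0.40 ± 0.14, adjusted p = 0.0697, edgeR). It passed in 7 of 23 settings, with log2 fold changes of 0.40 to 0.52: DESeq2 (adjusted p = 0.0393), no filter (0.00342), the GC correction (0.00483), the knockout-labelled libraries alone (0.0295), and without wild-type DMSO library 2 (0.0399), wild-type docetaxel library 1 (0.0480) or knockout-labelled docetaxel library 1 (0.0287). The calls of Tubb4b and Tubb2a thus depend on the setting, as those of Tuba1a and Tuba1c do. Tuba1b stood at 746, 604 and 671 CPM and at 776, 688 and 730 CPM (0.12 ± 0.14, adjusted p = 0.604, edgeR). Tubb5 stood at 2649, 2719 and 2746 CPM and at 2475, 2665 and 2688 CPM (-0.05 ± 0.09, adjusted p = 0.750, edgeR). For Tuba1b and Tubb5 the treatments overlapped.

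The test of the difference between the 2 docetaxel responses called 0 of 10 members (edgeR), against 0.109% of all genes. At an unadjusted p under 0.05, 5 members passed, against 11% of all genes, and all 5 had the smaller response in the knockout-labelled cells. They were Tubb4b (log2 difference -0.65 ± 0.17, adjusted p = 0.184), Tuba4a (-0.52 ± 0.13, adjusted p = 0.195), Tubb6 (-0.66 ± 0.18, adjusted p = 0.229), Tuba1a (-0.61 ± 0.18, adjusted p = 0.285) and Tuba1b (-0.46 ± 0.19, adjusted p = 0.413, edgeR). DESeq2 called 2 of them, Tuba4a (adjusted p = 0.0481) and Tubb4b (adjusted p = 0.0397), and limma-voom called 0. Over all genes DESeq2 called 165 and limma-voom 8, against 17 with edgeR. Without wild-type DMSO library 1, the one with conflicting labels, edgeR called 4: Tuba1a, Tuba4a, Tubb4b and Tubb6, with log2 differences of -0.78, -0.60, -0.82 and -0.81. The same setting raised the count over all genes from 17 to 431.

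Under DMSO, 4 members were higher in the knockout-labelled than in the wild-type cells and 1 was lower, against 6.6% and 9.2% of all tested genes, 15.8% in all (edgeR). Tubb4b was higher by 0.73 ± 0.12 on the log2 scale (adjusted p = 9.68e-04, edgeR), Tuba4a by 0.59 ± 0.10 (adjusted p = 9.25e-04), Tuba1b by 0.50 ± 0.14 (adjusted p = 0.0248) and Tubb6 by 0.48 ± 0.13 (adjusted p = 0.0207). Stk16 was also higher, by 0.43 ± 0.11 (adjusted p = 0.0181, edgeR). The libraries of Tubb4b, Tuba4a and Tuba1b did not overlap between genotypes, as did those of 15.7% of all genes in the same direction, while those of Tubb6 did overlap: 139 CPM in knockout-labelled library 2 against 140 CPM in wild-type library 1. The Tuba1b and Tubb6 calls were lost without wild-type library 2 or 3 or knockout-labelled library 1 or 3, where adjusted p-values were 0.0598 to 0.123, and without the 2 libraries richest in Gm23935 (adjusted p = 0.103 and 0.119). The Tuba1b call was also lost with a correction for GC content (adjusted p = 0.0536). Without wild-type library 1, 6 members were higher, Tuba1a (0.47) and Tuba1c (0.51) being the further ones. Both were also called with all libraries and no filter on low counts (adjusted p = 0.0341 and 0.0148, edgeR). The count of all genes called higher rose from 1025 to 1493 in the first of these settings and to 1315 in the second. These counts are out of 15538, 15969 and 28365 genes tested. Tuba4a and Tubb4b passed in all 23 settings. The wild-type DMSO libraries serve both this comparison and that of docetaxel in wild-type cells, so the 2 sets of changes are not independent of each other.

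After docetaxel 0 members were higher and 1 lower in the knockout-labelled cells, against 2.5% and 3.39% of all tested genes, 5.89% in all (edgeR). Whether the gap between genotypes changed with docetaxel is the question of the test of the difference between responses, which called 0 of 10 members. At an unadjusted p under 0.05, 3 members passed (18.1% of all genes did), all as lower: Tubb2b, Tubb2a (-0.37 ± 0.14, adjusted p = 0.169) and Tuba1a (-0.31 ± 0.13, adjusted p = 0.216, edgeR). Tubb4b, Tuba4a, Tuba1b, Tuba1c and Tubb5 differed by log2 fold changes of -0.04 to 0.07, each with overlapping libraries. The standard errors of these 5 differences were 0.09 to 0.14. Tubb6, which was higher in the knockout-labelled cells under DMSO, did not pass here, at -0.18 ± 0.13 (adjusted p = 0.500, edgeR), with all knockout-labelled libraries below all wild-type ones. In all, 3 members were lower without overlap, Tubb2b, Tuba1a and Tubb6, against 13.2% of all genes, and 0 were higher without overlap (11.9%).

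Tubb2b was the member that separated the genotypes under both treatments. With DMSO it stood at 12.4, 9.12 and 12.7 CPM in wild-type cells and at 4.16, 4.49 and 4.49 CPM in knockout-labelled cells, a log2 fold change of -1.38 ± 0.17 (adjusted p = 1.07e-04, edgeR). After docetaxel it stood at 9.97, 13.9 and 13.8 CPM and at 4.64, 5.96 and 5.32 CPM, a log2 fold change of -1.25 ± 0.17 (adjusted p = 3.64e-04, edgeR). Both calls held in all 23 settings. Wild-type DMSO library 1, whose description names a knockout, lay with the wild type for this gene. For Tuba1a (240 CPM), Tuba1c (163 CPM) and Tubb6 (140 CPM) that library lay within the range of the knockout-labelled DMSO libraries, at 212 to 269, 150 to 192 and 139 to 188 CPM, while the other 2 wild-type DMSO libraries lay below it. The same library lay below all knockout-labelled DMSO libraries for Tuba1b (591 CPM), Tuba4a (85.0 CPM) and Tubb4b (262 CPM). For these genes the knockout-labelled DMSO libraries stood at 604 to 746, 103 to 126 and 334 to 385 CPM. Tubb2a, which shares 408 read-length windows with Tubb2b, did not pass between genotypes under DMSO (-0.15 ± 0.14, adjusted p = 0.543, edgeR).

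Tubb3 was close to the limit of detection. Wild-type cells gave counts of 9, 4 and 12 with DMSO and 8, 11 and 22 after docetaxel. Knockout-labelled cells gave 11, 0 and 10 with DMSO and 17, 21 and 18 after docetaxel. In the knockout-labelled cells all docetaxel counts were above all DMSO counts, and in the wild-type cells the treatments overlapped. Summed over 3 libraries and scaled for depth, the docetaxel counts were 1.35 times the DMSO counts in wild-type cells (exact 95% interval 0.802 to 2.32) and 2.32 times in knockout-labelled cells (1.38 to 4.04). These intervals cover counting error only. The edgeR test, which adds the spread between libraries, called neither (log2 fold changes 0.43 ± 0.69, adjusted p = 0.678, and 1.23 ± 0.68, adjusted p = 0.247). The share of Tubb3 in the beta members was at most 0.0292% in any library.

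Within groups some members varied together and others did not. As a description over 12 libraries, with each group's mean subtracted from log2 CPM, the correlation was 0.990 between Tuba1a and Tuba1b, 0.973 between Tuba1b and Tuba1c and 0.959 between Tuba1a and Tuba1c. These 3 genes share read-length windows, and the part of shared reads in these values was not tested. Tubb2a and Tubb2b, which also share windows, had 0.954. Tuba4a and Tubb6, which share none with each other, had 0.916, and Tubb4b had 0.851 with Tuba4a and 0.845 with Tubb6. Tubb5 ran opposite to the Tuba1 genes, with -0.689 against Tuba1a, -0.701 against Tuba1b and -0.728 against Tuba1c. Against Tuba4a it had a weaker -0.382, and against Tubb2a -0.0319. Of all 45 pairs 12 were negative, 8 of them with Tubb5. The class II pair was nearly unrelated or opposite to the Tuba1 genes: Tubb2a had 0.0575 with Tuba1a, 0.0468 with Tuba1b and -0.0804 with Tuba1c, and Tubb2b had -0.113, -0.128 and -0.254. All pairs come from the same libraries and share their depth and scaling. The deviations were largest in the wild-type DMSO libraries for Tubb5 and Tuba1a. There the SD of Tubb5 was 94.6 CPM per kb, against 15.0 to 35.2 in the other groups. That of Tuba1a was 42.1 CPM there and 15.1 to 28.8 CPM in the others. How much each group adds to these correlations was not tested.

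The genes most like Tubb6 over the 12 libraries, by Pearson correlation of log2 CPM among 9783 protein-coding genes of at least 5 CPM, were Chpf (0.983), Ccnd3 (0.982), Ykt6 (0.979), Foxred1 (0.979) and Sec13 (0.978). Tuba4a was in place 14 (0.966) and Tuba1a in place 16 (0.964) of this order, and Tubb5 in place 8843 (-0.794). For Tubb3 the leading genes were E2f6 (0.824), Ppcs (0.817), Klf16 (0.783), Akirin2 (0.781) and Lrrc20 (0.779), which with counts this sparse is no more than a description. Among the members Tubb2a was nearest to Tubb3, in place 418 (0.512).

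The promoters of Tubb5, the beta member with the highest level, and of Tubb4b, which among the beta members with an entry in the RefSeq table changed most with docetaxel in wild-type cells, are shown as the 250 bases before the transcript start, on GRCm38.p6. Capitals mark the CCAAT box (CCAAT or its reverse ATTGG), the GC box (GGGCGG or CCGCCC) and the TATA box (TATAAA or TTTATA), searched on both strands, with no overlap between motifs in the windows shown. Sequences run 5′ to 3′ in the direction of the gene.
Tubb4b (chr2:25224703-25224952, minus strand): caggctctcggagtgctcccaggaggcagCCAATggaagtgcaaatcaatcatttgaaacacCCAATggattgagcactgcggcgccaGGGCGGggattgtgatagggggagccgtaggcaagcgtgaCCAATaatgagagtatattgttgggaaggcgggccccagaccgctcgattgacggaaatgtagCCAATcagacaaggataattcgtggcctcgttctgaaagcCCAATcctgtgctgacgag
Tubb5 (chr17:35838302-35838551, minus strand): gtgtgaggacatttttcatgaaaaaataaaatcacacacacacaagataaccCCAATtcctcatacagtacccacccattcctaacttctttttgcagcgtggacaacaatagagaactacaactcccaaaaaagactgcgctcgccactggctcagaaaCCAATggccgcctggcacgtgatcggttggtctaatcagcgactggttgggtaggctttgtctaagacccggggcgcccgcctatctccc
The Tubb4b window held 5 CCAAT boxes and 1 GC box, and the Tubb5 window 2 CCAAT boxes and 0 GC boxes. Of the 8 members with an entry, 5 held at least 1 CCAAT box, 6 a GC box and 1, Tubb2a, a TATA box. Over the 32851 promoters of the table the shares were 33.8%, 32.7% and 12.4%. A match is a run of letters and not a measured binding site.

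Genes that act on tubulin did not move as one. Of the further tubulins, 5 of 10 had enough counts to be tested. In wild-type cells after docetaxel 1 rose, Tubg1, the gamma tubulin that seeds microtubules (0.53 ± 0.12, adjusted p = 0.00581, edgeR), and 1 fell, Tubb4a, at 1.07 to 5.37 CPM in these libraries (-1.05 ± 0.32, adjusted p = 0.0238). Of all genes 14.5% rose and 13.8% fell. The list's median was -0.14. After docetaxel 0 of 5 passed in knockout-labelled cells, against 16.1% of all genes. At an unadjusted p under 0.05, 1 did, against 30.4% of all genes. Between genotypes under DMSO 1 of the 5 was higher in knockout-labelled cells and 1 lower, against 6.6% and 9.2% of all genes (edgeR). Tubg1 was higher (0.53 ± 0.12, adjusted p = 0.0101). Tubg2, the other gamma tubulin, was lower (-0.81 ± 0.16, adjusted p = 0.00309, edgeR). After docetaxel only Tubg2 was called between genotypes, again as lower (-0.81 ± 0.16, adjusted p = 0.00625, edgeR), against 5.89% of all genes called.

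The folding list holds the CCT chaperonin, prefoldin and the tubulin cofactors, which bring new tubulin to the dimer. Of 21 tested genes, 5 rose, 3 fell and 13 did not pass in wild-type cells after docetaxel, 38.1% called against 28.4% of all genes (14.5% rose and 13.8% fell), with a median of -0.03. Cct3, a CCT subunit, rose from 247, 196 and 207 CPM to 281, 330 and 297 CPM (0.48 ± 0.10, adjusted p = 0.00240, edgeR). The prefoldin subunits went both ways: Pfdn6 rose by 0.70 ± 0.24 (adjusted p = 0.0393) and Pfdn5 fell by 0.48 ± 0.16 (adjusted p = 0.0423, edgeR). Tbcb, a cofactor that binds alpha tubulin, rose by 0.46 ± 0.16 (adjusted p = 0.0483, edgeR). Of the 21 genes 0 passed in knockout-labelled cells (edgeR), against 16.1% of all genes. At an unadjusted p under 0.05, 5 did, against 30.4% of all genes. Between genotypes under DMSO 4 were higher in the knockout-labelled cells and 0 lower, against 6.6% and 9.2% of all genes: Pfdn6 (0.74), Cct8 (0.38), Cct7 (0.34) and Cct6a (0.27).

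Of the 4 genes of message autoregulation, Ttc5 and Scaper fell and Cnot11 rose in wild-type cells after docetaxel. The share called was 75%, against 28.4% of all genes (14.5% rose and 13.8% fell). In a list of 4 the values below are those of single genes and not of the list. Scaper, which links TTC5 to the deadenylase, went from between 29.3 and 40.7 CPM to between 19.4 and 25.6 CPM (-0.74 ± 0.14, adjusted p = 0.00178, edgeR). Ttc5, which reads the nascent tubulin chain, went from 40.2, 43.4 and 46.8 CPM to 32.3, 36.9 and 33.6 CPM (-0.34 ± 0.09, adjusted p = 0.0121, edgeR). Cnot11, the CCR4-NOT subunit that SCAPER contacts, rose by 0.27 ± 0.08 (adjusted p = 0.0158, edgeR). For docetaxel in knockout-labelled cells 0 of 4 passed, against 16.1% of all genes. At an unadjusted p under 0.05, 0 did, against 30.4% of all genes. Ttc5 was lower in the knockout-labelled than in the wild-type cells under DMSO, at 29.0, 29.9 and 31.9 CPM (-0.52 ± 0.09, adjusted p = 0.00162), and after docetaxel, at 24.7, 28.1 and 26.9 CPM (-0.37 ± 0.09, adjusted p = 0.0275, edgeR). The order of Ttc5 levels, highest in wild type with DMSO and lowest in knockout-labelled with docetaxel, held without overlap between any of the 4 groups. How many of all genes showed such an order was not counted.

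Of the enzymes that modify tubulin, 22 of 26 were tested. In wild-type cells after docetaxel 3 rose, 2 fell and 17 did not pass, a share called of 22.7%, close to the 28.4% of all genes. The values below are therefore those of single genes and not of the list. Tpgs2, a subunit of the polyglutamylase complex, rose by 0.82 ± 0.15 (adjusted p = 0.00133, edgeR), and the glycylase Ttll3 by 0.71 ± 0.19 (adjusted p = 0.0140), and the polyglutamylase Ttll4 by 0.40 ± 0.12 (adjusted p = 0.0216). Agbl5, which trims glutamates, fell by 0.46 ± 0.11 (adjusted p = 0.00687, edgeR). In knockout-labelled cells after docetaxel 3 rose and 2 fell, again 22.7%, against 16.1% of all genes. Tpgs2 rose there by 0.53 ± 0.15 (adjusted p = 0.0257) and Agbl5 fell by 0.47 ± 0.11 (adjusted p = 0.0106, edgeR). Ttll7, a polyglutamylase of beta tubulin, went from 15.1, 16.0 and 16.0 CPM to 29.7, 25.3 and 28.6 CPM (0.82 ± 0.12, adjusted p = 5.14e-04, edgeR). Under DMSO it was lower than in the wild-type libraries, at 26.1, 36.1 and 30.4 CPM (-0.97 ± 0.12, adjusted p = 1.47e-04, edgeR).

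Of the 9 genes of the gamma-tubulin ring complex and its adaptors, 2 rose, 1 fell and 6 did not pass in wild-type cells after docetaxel (33.3% called, against 28.4% of all genes). Tubgcp6 rose by 0.68 ± 0.12 (adjusted p = 0.00124) and Tubgcp3 by 0.25 ± 0.08 (adjusted p = 0.0252), and Tubgcp2 fell by 0.28 ± 0.08 (adjusted p = 0.0190, edgeR). Tubgcp2 also fell in knockout-labelled cells, by 0.32 ± 0.08 (adjusted p = 0.0141, edgeR), and the other 8 did not pass. There 11.1% of the list was called, against 16.1% of all genes.

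**Figure D4:**
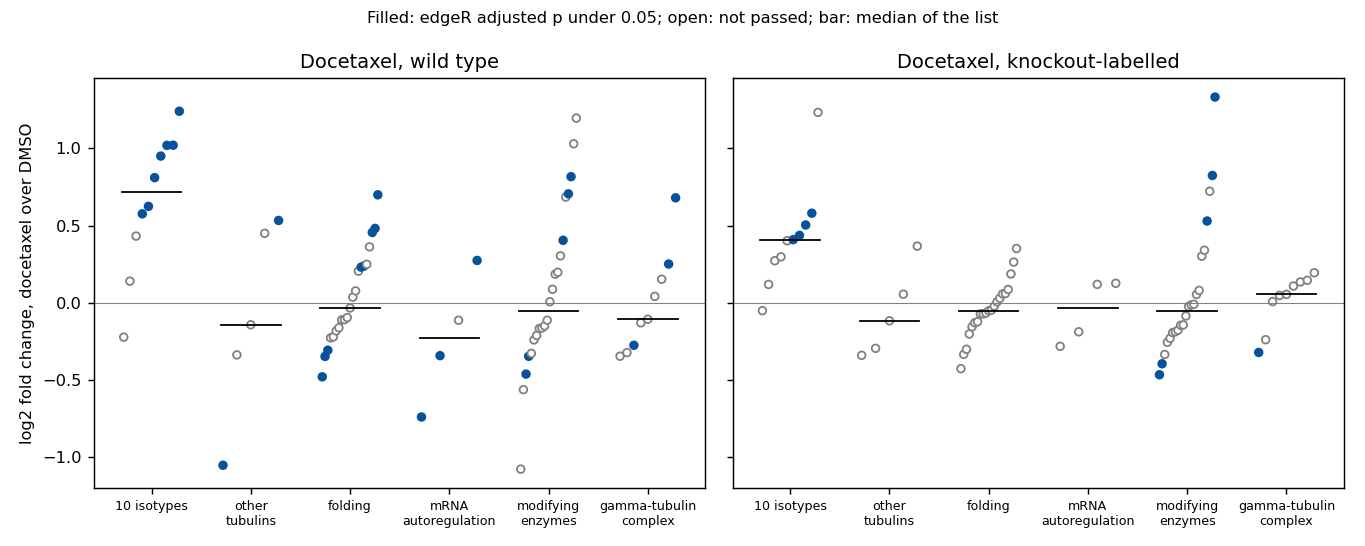
Log2 fold change, docetaxel over DMSO, of the 10 isotypes and of the tested genes of 5 further tubulin lists in wild-type (left) and knockout-labelled (right) cells; each point is a gene, filled where the edgeR adjusted p was under 0.05, and the bar is the list's median. The isotypes have a median of 0.72 in the left panel and 0.41 in the right, and the medians of the 5 further lists lie between -0.23 and 0.05.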

How the data were processed

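RNA was depleted of ribosomal RNA with RNase H, primed with random hexamers and sequenced as paired reads of 150 bases, per the labels' protocols. The submitters' processing notes name STAR 2.5.1a, featureCounts 1.4.6-p5 (Subread) and bcl2fastq. The sources used here do not give the authors' build, annotation, strand setting or rule for multiply mapped reads. The authors deposited raw counts per gene symbol. Of 40757 entries, 351 that repeated another in symbol and all counts (0.907% of counts) were removed. All 40406 others matched GENCODE M21 (GRCm38), used for lengths, GC content, coordinates and coding sequences. Promoters came from RefSeq (GRCm38.p6). The coding ends of the alpha members are not reported here.

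Counts were filtered with filterByExpr, scaled by TMM and fitted by edgeR 4.0.16 (R 4.3.3) as 1 quasi-likelihood model of 4 group means on 12 libraries. Tests were two-sided, adjusted by Benjamini-Hochberg over 15538 genes per contrast and called at 0.05. The SE is the absolute log2 fold change over the square root of F. The common biological coefficient of variation was 13.2%. The procedure was tested on simulated counts. Alternatives were DESeq2 1.42.0, limma-voom (limma 3.58.1), RLE and upper-quartile scaling, 2 other filters, a GC correction, a replicate block, the libraries of the contrast alone, each library left out and, added after seeing the data, the 2 libraries richest in Gm23935 left out. Libraries of 1 group differed by chi-square values per degree of freedom of 7.79 to 155, so none repeated another.

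The members and lists were chosen with earlier results of these data known. Named beside the members were Itgb3, Stk16 (for its overlap), Tubb4b-ps1 (for its shared windows), up to 4 called genes per list and contrast with the largest changes and at least 5 CPM, and the 5 genes most like Tubb3 and Tubb6. Tubb4a and the promoters shown were chosen after their values were seen.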

Additional observations from a re-analysis of the deposited data

How the results depend on the processing

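Over 23 settings the count of members that rose with docetaxel in wild-type cells was 7. The count that fell there was 0, but 1 (Tubb5) with DESeq2 and 0 to 1 on leaving out 1 library. The 4 that rose in knockout-labelled cells were 2 with upper-quartile scaling, 2 without the 2 libraries richest in Gm23935, and 2 to 5 on leaving out 1 library. They were 5 with DESeq2, which added Tubb2a, and 6 with no filter, with the GC correction and in a fit of those 6 libraries, which each added Tubb2a and Tubb4b. Over all genes 1412 rose there, 1776 with DESeq2, 1688 with no filter, 1782 with the GC correction and 1530 in that fit. With upper-quartile scaling 1184 rose, and 1057 without the 2 libraries richest in Gm23935. The 4 that were higher in knockout-labelled cells under DMSO were 2 in a fit of those 6 libraries, 2 without the libraries rich in Gm23935, and 2 to 6 on leaving out 1 library. Having no filter added Tuba1a and Tuba1c to them, and the GC correction lost Tuba1b. Genes called higher there numbered 1025 over all genes, 562 in that fit and 442 without the libraries rich in Gm23935. They numbered 1315 with no filter and 1313 with the GC correction. After docetaxel 1 was lower, and 2 without the filter on low counts. The interaction's 0 became 2 with DESeq2, 4 with no filter, and 0 to 4 on leaving out 1 library. Over all genes its 17 calls became 165 with DESeq2, 421 of 28365 tested with no filter, and 2 to 431 on leaving out 1 library. The causes were not tested.

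Signs changed only in differences that did not pass. On leaving out 1 library, Tubb3 ran from -0.093 to 0.77 for docetaxel in wild-type cells and from -0.897 to 0.17 between genotypes under DMSO, Tuba1b from -0.0060 to 0.086 and Tuba1c from -0.090 to 0.031 between genotypes after docetaxel, and the Tubb2b interaction from -0.0091 to 0.27. With the GC correction Tuba1c was 0.0034 between genotypes after docetaxel.

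With shares of CPM in place of counts per kb, Tubb5 was 87.8%, 76.0%, 82.5% and 77.6% of the beta members and Tuba1b 53.9%, 47.5%, 56.2% and 50.6% of the alpha members, in the order wild type with DMSO and docetaxel, then knockout-labelled. The directions between treatments were the same.

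Replicate numbers were not used as pairs in the main fit. Of 18 same-number pairs, 8 correlated above 0.1 in their deviations (-0.640 to 0.677, against -0.669 to 0.614 in the other pairs). Of 12 libraries, 5 correlated best with their own number. Whether some libraries were paired cannot be told from these values. With the replicate block, calls over all genes went from 17 to 48 for the interaction and from 4406 to 4510 for docetaxel in wild-type cells, and no member's call changed. Among the members Tubb3 had the fewest counts, 0 to 22 per library, and Tubb2b came next with 130 to 494. The effect of depth on the calls was not tested.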
